A study of Homo sapiens with 9 samples.

Results

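The genes described here make, and in part sense, the lipid mediators that cells derive from arachidonic acid. They are PLA2G4A, PTGS1, PTGS2, PTGES, ALOX5, ALOX5AP, LTA4H, LTC4S, PTGER2 and PTGER4. They were picked by symbol, taking the first row that bears it, and all 10 were found among the 30000 rows of the deposited table of read counts. The RNA came from THP-1, a human monocytic leukaemia cell line that is widely used in place of blood monocytes. The 9 libraries formed 3 groups of 3. Control cells received no ectosomes according to their labels. A second group was given ectosomes from Huh7 hepatoma cells with a scramble shRNA, ectosomes being vesicles shed by outward budding of the cell surface. The remaining group was given PKM2-knockdown ectosomes, read here as ectosomes of Huh7 cells in which the pyruvate kinase isoform PKM2 was targeted by shRNA. The sources used here give no dose, preparation or incubation time for the ectosomes and no vehicle for the controls. Nothing states that replicates were separate cultures, and the p-values below therefore rest on a spread between libraries that could be technical.

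Prostaglandins and leukotrienes begin with the same step, in which a phospholipase frees arachidonate from membrane lipids. Cyclooxygenases then turn it into prostaglandin H2, from which terminal synthases make the individual prostanoids. In the other branch 5-lipoxygenase, helped by its activating protein, makes leukotriene A4, which is passed either to leukotriene A4 hydrolase or to leukotriene C4 synthase. Monocytes and macrophages are known producers of prostaglandin E2, thromboxane and both classes of leukotriene.

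Libraries held 17744587 to 23864381 counts, and mitochondrially encoded genes took 4.27% to 4.90% of them. Of the controls, replicate 3 was unlike the remaining pair. Among 11414 rows with a mean of at least 5 CPM (counts relative to the TMM-scaled library size), it differed at least 2-fold from them in 724 and 812 rows, against 4 to 13 rows in the other 7 pairs of replicates. It lay below both other controls for 5 of the 10 genes (PTGS1, PTGS2, ALOX5, ALOX5AP and PTGER4) and above both for 3 (LTA4H, LTC4S and PTGER2), so values without it are given where they matter. All 12 monocytic markers on a list of such genes were detected. CD68 averaged under 1 CPM in each group, and it shares 81.7% of its exon bases with the same-strand gene AC016876.2, whose reads could not be separated from its own. The summed level of the 12 markers ran from 1473 to 2213 CPM in control, from 2164 to 2335 CPM with scramble ectosomes and from 3968 to 4264 CPM with PKM2-knockdown ectosomes. ITGB2 was the largest part of it in each group, at 636, 730 and 1879 CPM. Single markers differed from the sum. With scramble ectosomes 3 were higher, among them CSF1R (35.5 to 85.0 CPM). Another 5 were lower, among them LYZ (203 to 17.6 CPM), FCGR1A (71.1 to 14.6 CPM) and CD4 (74.1 to 24.6 CPM). LYZ had 342 CPM in control replicate 3, and was 7.59-fold lower without that library. LYZ and FCGR1A share 34.0% and 18.7% of their exon bases with the opposite-strand genes AC020656.1 and AC243772.2, whose reads could not be separated. With PKM2-knockdown against scramble ectosomes 8 were higher and 0 lower. In both comparisons 66.7% of the 12 were called (adjusted p under 0.05), near the 67.8% and 61.6% of all rows. Summed hepatocyte markers, 8 of 16 of which are in the table, reached 3.48 to 8.09, 6.85 to 7.37 and 41.4 to 47.9 CPM in the same order. Most of the last value was SERPINA1, which monocytes also express, at 2.01, 3.53 and 37.4 CPM. APOA2 averaged 1.76, 2.28 and 4.82 CPM and albumin 0.111, 0.113 and 0.448 CPM, so these were also highest in the PKM2-knockdown group. The rest of the list in the table was not. APOA1 averaged 0.676, 0.252 and 0.0803 CPM and TF 0.825, 0.351 and 0.807 CPM, both highest in control. TTR, HNF4A and AMBP were highest with scramble ectosomes, at 0.113, 0.160 and 0.381 CPM. The part of hepatocyte RNA in the values below was not tested.

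Scramble ectosomes changed the 10 genes in both directions. The cyclooxygenase genes PTGS1 and PTGS2 and the 5-lipoxygenase activating protein gene ALOX5AP rose 5.76-fold to 14.9-fold. PLA2G4A, ALOX5, LTA4H, LTC4S and PTGER4 fell, by 1.48-fold to 14.1-fold, and PTGES and PTGER2 did not pass the threshold. That is 3 genes higher, 5 lower and 2 not called (adjusted p under 0.05, edgeR's quasi-likelihood test over all rows). Calls were that common throughout: 67.8% of the 18437 rows tested passed in this comparison, 34.6% higher and 33.2% lower. The groups did not overlap for 7 of the 10 genes, against 71.3% of all rows. The median log2 fold change of the 10 was -0.33, beside -0.01 over all rows.

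With PKM2-knockdown ectosomes, 7 of the 10 genes were higher than with scramble ectosomes and 0 were lower. These were PLA2G4A, PTGES, PTGER2, PTGER4, ALOX5, LTA4H and LTC4S. They include genes of release, of leukotriene synthesis and of reception, with PTGES as the only gene of prostaglandin synthesis. PTGES entered the test only through its reads in the PKM2-knockdown group, so it had to differ and its call is no support, which leaves 6 of the other 9. PTGS1, PTGS2 and ALOX5AP were not called. Of all rows, 61.6% passed in this comparison, 31.4% higher and 30.3% lower. The groups did not overlap for 9 of the 10 genes, PTGES among them although it had to differ, against 74.5% of all rows. The median log2 fold change of the 10, PTGES included, was 0.98, beside 0.03 over all rows. Without control replicate 3, 9 were higher and 0 lower, PTGES again among them. In that fit 13617 of all 19053 rows tested passed, 6874 higher and 6743 lower. Monocytic markers, given above, were also higher with PKM2-knockdown than with scramble ectosomes. With scramble ectosomes against control, 3 of the 12 markers were higher and 5 lower. The part of these markers' cells in the values was not tested. The split of calls over all rows depended on the scaling. With library totals in place of TMM, 40.2% of the calls for scramble ectosomes against control were higher in place of 51.0% (all-row median -0.21), and 61.9% of those for PKM2-knockdown against scramble ectosomes in place of 50.9% (all-row median 0.20).

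Against control cells, PKM2-knockdown ectosomes left 7 genes higher, 1 lower (LTC4S) and 2 not called (PTGER2 and PTGER4). In that comparison 53.7% of all rows passed, 27.0% higher and 26.7% lower. The groups did not overlap for 9 of the 10 genes, PTGES among them although it had to differ, against 60.5% of all rows. The median log2 fold change of the 10, PTGES included, was 1.41, beside -0.01 over all rows. The 3 comparisons use the same 9 libraries and each pair of them shares a group, so their values are not independent of each other. All 10 genes passed the filter on low counts, PTGES through the PKM2-knockdown group alone, and without it 6 of the other 9 were higher than in control.

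**Figure D1:**
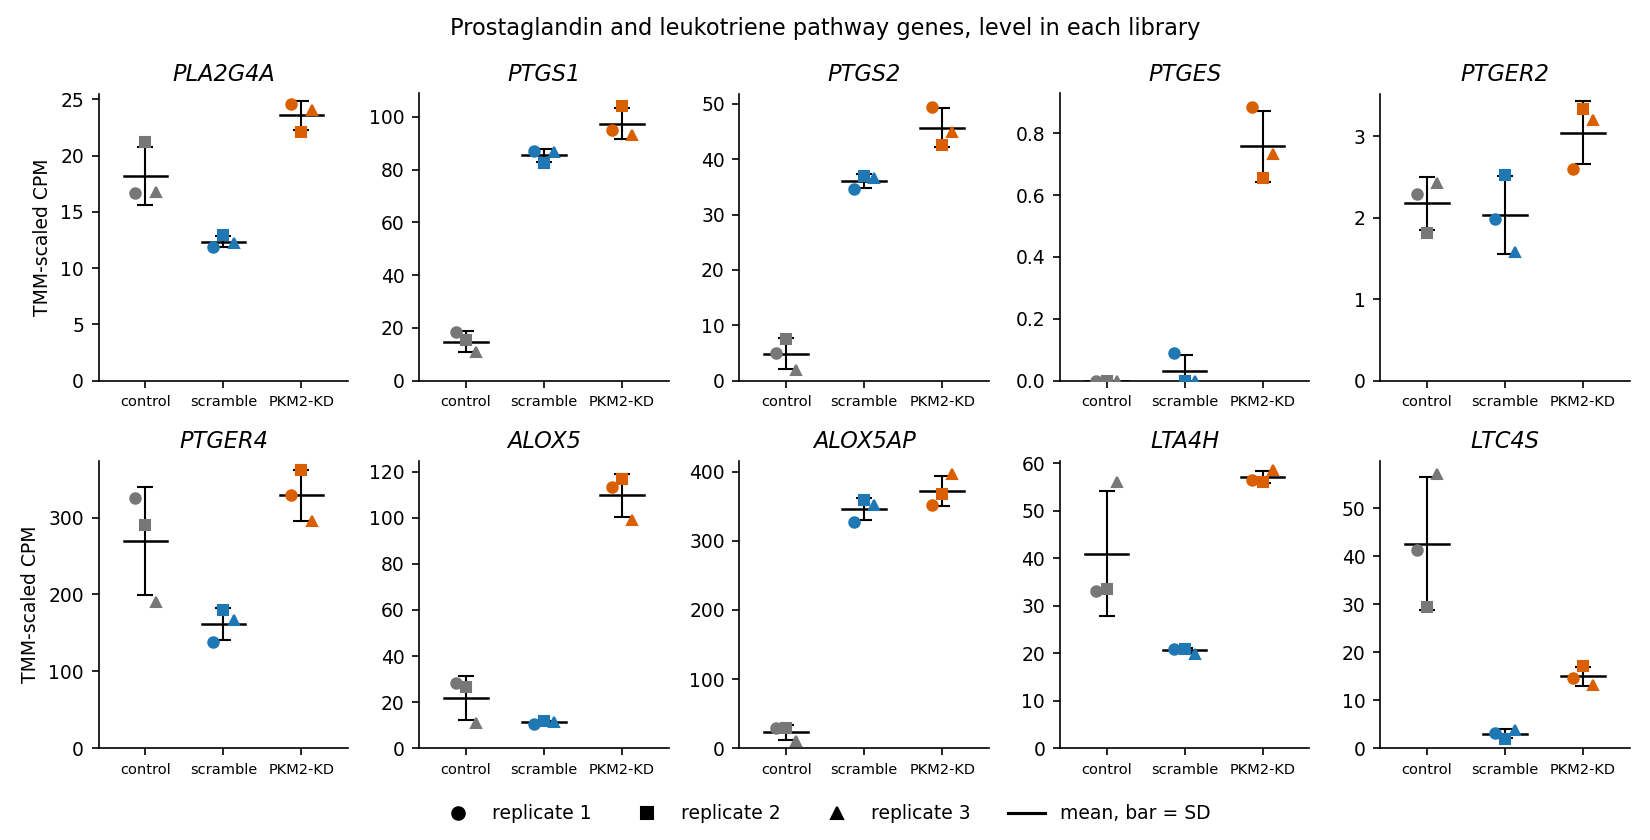
Level of each gene in TMM-scaled CPM (linear axes from 0) in every library of control cells and cells given scramble or PKM2-knockdown (PKM2-KD) ectosomes, with the mean and SD of 3 libraries. ALOX5AP, PTGS1 and PTGS2 are high with both kinds of ectosomes, whereas ALOX5 averages 11.3 CPM with scramble and 109.7 CPM with PKM2-knockdown ectosomes.

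PLA2G4A (chromosome 1, 186828953 to 186988981, plus strand, GRCh38, GENCODE release 29) encodes the cytosolic phospholipase A2 that releases arachidonate. Its level was 16.7, 21.2 and 16.8 CPM in control libraries 1 to 3, 11.9, 12.9 and 12.3 CPM with scramble ectosomes, and 24.6, 22.1 and 24.01 CPM with PKM2-knockdown ectosomes. The 3 groups did not overlap, the scramble group being lowest and the PKM2-knockdown group highest. PLA2G4A fell with scramble ectosomes by 0.56 on the log2 scale (SE 0.12, 1.48-fold, adjusted p = 0.00136). It was 1.91-fold higher with PKM2-knockdown than with scramble ectosomes (log2 0.93, SE 0.12, adjusted p = 4.97e-05). The 1.29-fold excess over control (log2 0.37, SE 0.11, adjusted p = 0.0180) missed the threshold without control replicate 1 (0.0617), PKM2-knockdown replicate 1 (0.0631) or PKM2-knockdown replicate 3 (0.0516). As these are bulk samples, more cells of a type and more RNA per cell cannot be told apart for this or any other gene here.

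PTGS1 and PTGS2 encode the cyclooxygenases COX-1, usually regarded as the constitutive form, and COX-2, the inducible form. PTGS1 (chromosome 9, 122370530 to 122395703, plus strand) stood at 18.3, 15.4 and 10.7 CPM in control cells, 87.2, 82.6 and 86.6 CPM with scramble ectosomes, and 94.9, 104 and 93.2 CPM with PKM2-knockdown ectosomes. All 6 ectosome libraries lay far above the controls. The rise was 5.76-fold with scramble ectosomes (log2 2.53, SE 0.15, adjusted p = 1.58e-07). It was 6.57-fold with PKM2-knockdown ectosomes (log2 2.72, SE 0.16, adjusted p = 3.05e-07). Between the ectosomes the estimate was 0.19 on the log2 scale, with an approximate 95% interval of -0.16 to 0.53 and an adjusted p of 0.265, although the libraries did not overlap. The same difference passed when the fit held these 2 groups alone (adjusted p = 0.00375) and without control replicate 3 (0.0129). Platelets are the classical site of COX-1, and the summed level of 6 megakaryocyte and platelet markers, 5 of them in the table, was 8.17 to 12.5, 8.21 to 9.54 and 13.3 to 13.5 CPM in control, scramble and PKM2-knockdown libraries, with GP9 under 1 CPM in each group. With scramble ectosomes 2 of these markers were higher, PPBP (0.0143, 3.96 and 1.64 CPM in the 3 groups) and TUBB1 (0.531, 1.55 and 0.937 CPM), and 2 were lower, GP1BA (7.99, 2.91 and 7.21 CPM) and ITGA2B (2.21, 0.589 and 3.59 CPM). PPBP passed the filter on low counts only through the ectosome groups, so its call against control is no support. TUBB1 shares 34.0% of its exon bases with the opposite-strand gene ATP5F1E, whose reads could not be separated. The part of megakaryocytes and platelets in the PTGS1 values was not tested.

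PTGS2 (chromosome 1, 186671791 to 186680427, minus strand) was measured at 5.01, 7.62 and 1.99 CPM in control libraries, 34.6, 36.9 and 36.7 CPM with scramble ectosomes, and 49.5, 42.7 and 44.9 CPM with PKM2-knockdown ectosomes. The controls were low and uneven, control replicate 3 being the lowest, and no ectosome library came near them. PTGS2 rose 7.25-fold with scramble ectosomes (log2 2.86, SE 0.31, adjusted p = 1.09e-05), or 5.61-fold without control replicate 3. With PKM2-knockdown ectosomes it rose 9.20-fold (log2 3.20, SE 0.31, adjusted p = 1.08e-05), or 7.11-fold without that library. The difference between the ectosomes, 0.34 on the log2 scale with an interval of -0.31 to 0.99, did not pass (adjusted p = 0.283). Here too it passed with the 2 ectosome groups alone (adjusted p = 0.000101) and without control replicate 3 (0.00186), and the 2 groups did not overlap.

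PTGES encodes microsomal prostaglandin E synthase, the inducible enzyme that works with COX-2 to make prostaglandin E2. The gene (chromosome 9, 129738331 to 129753047, minus strand) had 0 reads in every control library, 2, 0 and 0 reads with scramble ectosomes, and 18, 14 and 14 reads with PKM2-knockdown ectosomes. Only the PKM2-knockdown group had reads in every library, at 0.883, 0.656 and 0.734 CPM. Against scramble ectosomes the ratio of CPM was 23.5, with an exact 95% interval of 6.14 to 199.6 for counting error. Against control cells the level was at least 15.2-fold higher, taking 3 reads over the control group as the limit that 0 reads allow. No p-value is given for PTGES, since the group with the reads also carried it through the filter. A difference between scramble ectosomes and control was not detectable at this depth.

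The sequence just upstream of the start site is shown for the 4 genes with the widest contrasts in level among those matched in RefSeq's promoter table (GRCh38.p14), which held 9 of the 10 genes. Each line gives the 250 bases before the start, 5′ to 3′ on the gene's strand. Capitals mark matches, on either strand, to TATAAA, to GGGCGG (the GC box), to TGACG (the core of the cyclic AMP response element), to TTNNGNAA (a short C/EBP form) or to GAGGAA (the PU.1 core). TGANTCA (AP-1) and TTCNNNGAA (STAT) were also searched and are in none of the 4 windows. No 2 matches overlap in these windows.
PTGS2, chr1:186680424-186680673, minus strand: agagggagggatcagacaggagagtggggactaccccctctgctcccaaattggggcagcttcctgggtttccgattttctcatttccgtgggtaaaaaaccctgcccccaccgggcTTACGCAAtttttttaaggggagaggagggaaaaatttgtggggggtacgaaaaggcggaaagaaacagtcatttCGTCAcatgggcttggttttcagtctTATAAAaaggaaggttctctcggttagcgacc
PTGES, chr9:129753043-129753292, minus strand: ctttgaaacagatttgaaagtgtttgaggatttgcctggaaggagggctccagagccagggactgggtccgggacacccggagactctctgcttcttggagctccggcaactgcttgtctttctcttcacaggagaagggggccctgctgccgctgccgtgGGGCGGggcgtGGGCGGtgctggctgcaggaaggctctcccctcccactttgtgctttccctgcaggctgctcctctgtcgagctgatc
ALOX5AP, chr13:30713235-30713484, plus strand: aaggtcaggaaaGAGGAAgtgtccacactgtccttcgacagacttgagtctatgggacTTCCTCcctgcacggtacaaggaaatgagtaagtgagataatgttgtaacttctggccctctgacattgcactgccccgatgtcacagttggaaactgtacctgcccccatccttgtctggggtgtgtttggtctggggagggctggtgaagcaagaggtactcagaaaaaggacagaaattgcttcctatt
LTC4S, chr5:179793736-179793985, plus strand: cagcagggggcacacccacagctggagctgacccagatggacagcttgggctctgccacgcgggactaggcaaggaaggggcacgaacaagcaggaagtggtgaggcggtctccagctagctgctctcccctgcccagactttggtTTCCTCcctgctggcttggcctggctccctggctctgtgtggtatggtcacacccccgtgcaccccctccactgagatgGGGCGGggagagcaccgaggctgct
The PTGS2 window holds TATAAA with its first base at -32 from the start, the cyclic AMP element core at -58 and the C/EBP form at -133. Of 35116 promoter windows of the same length, 10.7% hold TATAAA, 21.2% the cyclic AMP element core and 33.2% the C/EBP form. The PTGES window holds the GC box 2 times and no TATAAA, and 42.6% of all windows hold the GC box. ALOX5AP has 2 PU.1 cores and no other match, LTC4S has 1 PU.1 core and 1 GC box, and 23.6% of all windows hold the PU.1 core. AP-1 and STAT forms are in 6.57% of windows each. These are matches of letters and no binding was measured.

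The leukotriene genes did not move together. ALOX5 (chromosome 10, 45374176 to 45446119, plus strand) encodes 5-lipoxygenase, which commits arachidonate to leukotrienes. Its level was 28.2, 26.5 and 10.8 CPM in control libraries 1 to 3, 10.5, 11.95 and 11.4 CPM with scramble ectosomes, and 113, 117 and 98.9 CPM with PKM2-knockdown ectosomes. Control replicate 3 lay within the scramble range, and all PKM2-knockdown libraries lay above all others. ALOX5 was 9.73-fold higher with PKM2-knockdown than with scramble ectosomes (log2 3.28, SE 0.28, adjusted p = 3.68e-06). It fell with scramble ectosomes by 0.96 on the log2 scale (SE 0.28, 1.94-fold, adjusted p = 0.0101), or 2.43-fold without control replicate 3 (adjusted p = 3.17e-10). Against control, PKM2-knockdown ectosomes raised it 5.01-fold (log2 2.33, SE 0.27, adjusted p = 4.03e-05), or 4.01-fold without that library.

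ALOX5AP (chromosome 13, 30713478 to 30764426, plus strand) encodes FLAP, the membrane protein that presents arachidonate to 5-lipoxygenase. It had 29.2, 29.3 and 10.8 CPM in control libraries, 328, 359 and 352 CPM with scramble ectosomes, and 352, 368 and 396 CPM with PKM2-knockdown ectosomes. The 2 ectosome groups overlapped and both lay more than an order of magnitude above the control mean of 23.1 ± 10.7 CPM (SD, n = 3). ALOX5AP rose 14.9-fold with scramble ectosomes (log2 3.90, SE 0.30, adjusted p = 9.33e-07), or 11.8-fold without control replicate 3. It rose 16.0-fold with PKM2-knockdown ectosomes (log2 4.004, SE 0.30, adjusted p = 2.01e-06). Between the ectosomes the estimate was 0.10 on the log2 scale, with an interval of -0.54 to 0.75 (adjusted p = 0.750).

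LTA4H and LTC4S encode the enzymes that compete for leukotriene A4. LTA4H, the hydrolase that makes the neutrophil attractant leukotriene B4 (chromosome 12, 96000828 to 96043520, minus strand), had 33.1, 33.5 and 56.1 CPM in control libraries, 20.9, 20.9 and 19.9 CPM with scramble ectosomes, and 56.5, 56.1 and 58.5 CPM with PKM2-knockdown ectosomes. Control replicate 3 was at 56.08 CPM, just under the lowest PKM2-knockdown library at 56.12 CPM. LTA4H fell with scramble ectosomes by 0.99 on the log2 scale (SE 0.18, 1.99-fold, adjusted p = 0.000489), or 1.62-fold without control replicate 3. With PKM2-knockdown ectosomes it was 2.77-fold above the scramble group (log2 1.47, SE 0.18, adjusted p = 3.85e-05). Its 1.40-fold excess over control (log2 0.48, SE 0.17, adjusted p = 0.0345) missed the threshold without control replicate 1 (0.115) or 2 (0.119), without PKM2-knockdown replicate 1 (0.0757), 2 (0.0653) or 3 (0.0869), and with these 2 groups alone (0.0747). Without control replicate 3 it was 1.71-fold (adjusted p = 1.38e-08). Opposite-strand genes AC007298.1 and AC007298.2 share 1.65% and 7.92% of its exon bases, and the strand setting of the counting is not given, so their reads could not be separated. None of the other 9 genes shares exon bases with another gene in GENCODE release 29.

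LTC4S makes leukotriene C4, the parent of the cysteinyl leukotrienes (chromosome 5, 179793980 to 179796647, plus strand). Its level was 41.3, 29.4 and 57.1 CPM in control libraries, 3.11, 2.001 and 3.88 CPM with scramble ectosomes, and 14.7, 17.2 and 13.3 CPM with PKM2-knockdown ectosomes. No group overlapped another, and control cells were highest. LTC4S fell with scramble ectosomes by 3.82 on the log2 scale (SE 0.28, 14.1-fold, adjusted p = 6.12e-07), or 11.6-fold without control replicate 3. With PKM2-knockdown ectosomes it was 4.98-fold above the scramble group (log2 2.32, SE 0.28, adjusted p = 3.89e-05) and 2.83-fold below control (log2 -1.499, SE 0.24, adjusted p = 0.000384). LTC4S is characteristic of mast cells, basophils and eosinophils, so markers of these cells were summed. Of 10 such markers 8 are in the table and 4 were tested, and their sum was 59.5 to 70.9 CPM in control, 16.5 to 19.9 CPM with scramble and 43.9 to 51.0 CPM with PKM2-knockdown ectosomes. Nearly all of it was GATA2, a transcription factor also found in progenitors, at 61.1, 15.5 and 42.7 CPM. Some defining mast cell genes followed the same order at low level, MS4A2 at 0.794, 0 and 0.1302 CPM and KIT at 1.70, 0.349 and 1.29 CPM. The tryptase gene TPSB2 ran the other way, at 0.101, 1.44 and 1.76 CPM, and HDC averaged under 0.1 CPM in each group. The part of such cells in the LTC4S values was not tested.

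**Figure D2:**
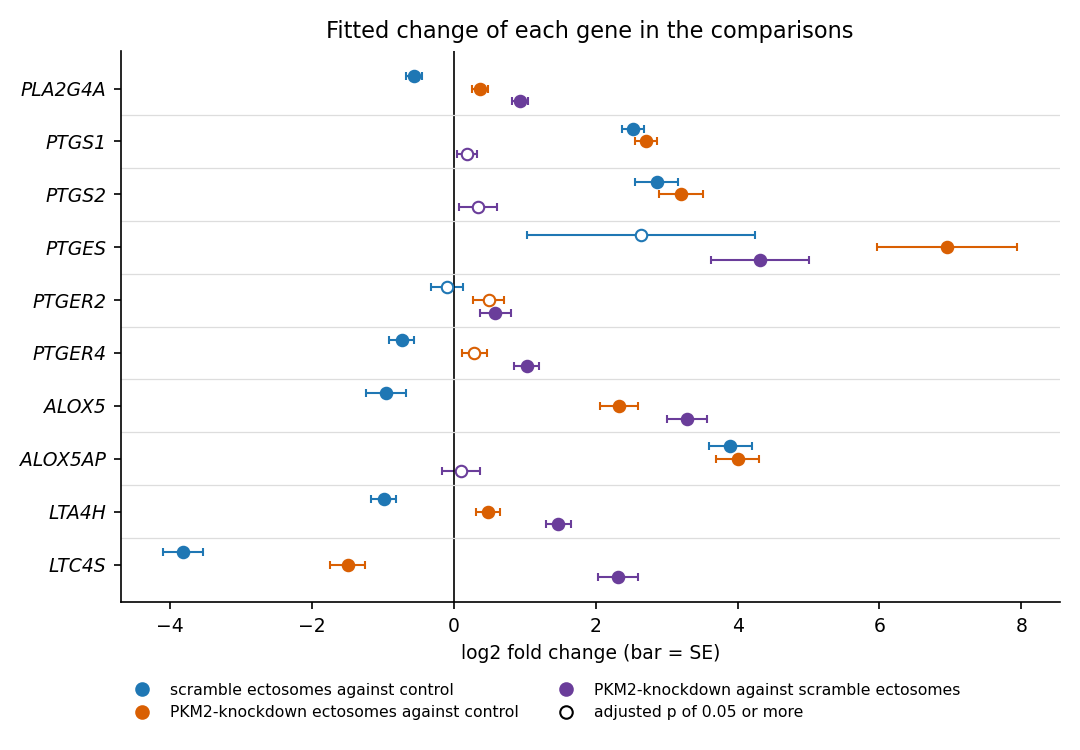
Fitted log2 fold change of each gene (x axis, points with SE bars) in scramble ectosomes against control, PKM2-knockdown ectosomes against control, and PKM2-knockdown against scramble ectosomes, with open points for an adjusted p of 0.05 or more. ALOX5 moves to opposite sides of 0 against control (-0.96 and 2.33), and the PTGES points depend on the prior count because control libraries had 0 reads.

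PTGER2 and PTGER4 encode EP2 and EP4, receptors that couple prostaglandin E2 to cyclic AMP. PTGER4 (chromosome 5, 40679498 to 40693735, plus strand) had 326, 291 and 191 CPM in control libraries, 139, 180 and 167 CPM with scramble ectosomes, and 329, 362 and 296 CPM with PKM2-knockdown ectosomes. The scramble libraries lay below all others, while the control and PKM2-knockdown ranges overlapped. PTGER4 fell with scramble ectosomes by 0.74 on the log2 scale (SE 0.18, 1.66-fold, adjusted p = 0.00365). It was 2.04-fold higher with PKM2-knockdown than with scramble ectosomes (log2 1.03, SE 0.18, adjusted p = 0.000527). Against control the estimate for PKM2-knockdown ectosomes was 0.29, with an interval of -0.14 to 0.72 (adjusted p = 0.189).

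PTGER2 (chromosome 14, 52314305 to 52328606, plus strand) was low throughout, at 2.29, 1.81 and 2.43 CPM in control libraries, 1.99, 2.53 and 1.58 CPM with scramble ectosomes, and 2.601, 3.33 and 3.20 CPM with PKM2-knockdown ectosomes. The PKM2-knockdown libraries were above all others, the closest gap being to scramble replicate 2. PTGER2 was 1.501-fold higher with PKM2-knockdown than with scramble ectosomes (log2 0.59, SE 0.22, adjusted p = 0.0398). That call was lost without scramble replicate 1 (0.101) or 3 (0.153), without PKM2-knockdown replicate 2 (0.122) or 3 (0.0980), and in DESeq2 (0.0845). Scramble ectosomes against control gave -0.10, with an interval of -0.66 to 0.47 (adjusted p = 0.726). PKM2-knockdown ectosomes against control gave 0.49, with an interval of -0.05 to 1.03 (adjusted p = 0.0849, or 0.0411 without control replicate 3).

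Levels were set side by side per length, as RPKM computed here from TMM-scaled CPM and the exon length of GENCODE release 29. In control cells PTGER4 came first at 68.0 ± 17.8 RPKM (SD, n = 3), ahead of LTC4S at 35.8 ± 11.7 and ALOX5AP at 13.5 ± 6.23 RPKM. PLA2G4A, ALOX5 and LTA4H followed at 6.33, 5.85 and 5.57 RPKM, and ALOX5AP and PLA2G4A, PLA2G4A and ALOX5, and ALOX5 and LTA4H overlapped. PTGS1 had 2.56 RPKM, and PTGS2 at 0.925 and PTGER2 at 0.880 RPKM overlapped. With scramble ectosomes ALOX5AP led at 202 ± 9.48 RPKM (SD, n = 3), followed by PTGER4 at 40.8, PTGS1 at 14.8, PTGS2 at 6.84 and PLA2G4A at 4.30 RPKM. ALOX5, LTA4H and LTC4S, at 3.02, 2.80 and 2.52 RPKM, overlapped from one to the next. LTC4S thus moved from the second place to the eighth, and PTGER2 and PTGES stayed last. With PKM2-knockdown ectosomes the order began with ALOX5AP at 217 ± 12.98 RPKM (SD, n = 3), PTGER4 at 83.1 and ALOX5 at 29.4 RPKM. PTGS1 at 16.8 and LTC4S at 12.6 RPKM came next, ahead of PTGS2, PLA2G4A and LTA4H at 8.67, 8.20 and 7.76 RPKM, which overlapped from one to the next.

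Ratios within a library showed how far partners parted. ALOX5 stood at 0.443, 0.415 and 0.460 of ALOX5AP, per length, in control libraries. The ratio was 0.0148, 0.0153 and 0.0148 with scramble ectosomes and 0.148, 0.146 and 0.115 with PKM2-knockdown ectosomes. Control replicate 3 was the highest control here, although both genes were low in it, and no group overlapped another. The ratio of LTC4S to LTA4H was 6.46 ± 1.14 in control, 0.904 ± 0.307 with scramble and 1.63 ± 0.245 with PKM2-knockdown ectosomes (SD, n = 3), again without overlap. By contrast, PTGS2 relative to PTGS1 was 0.349 ± 0.175, 0.464 ± 0.0277 and 0.518 ± 0.0626 in the same order (SD, n = 3), and PTGER4 relative to PTGER2 was 79.4 ± 27.0, 51.3 ± 12.6 and 68.3 ± 10.7, and these groups overlapped. With 3 libraries against 3, an exact two-sided permutation test of a ratio cannot go below 0.1, so no p-value is given for them.

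**Figure D3:**
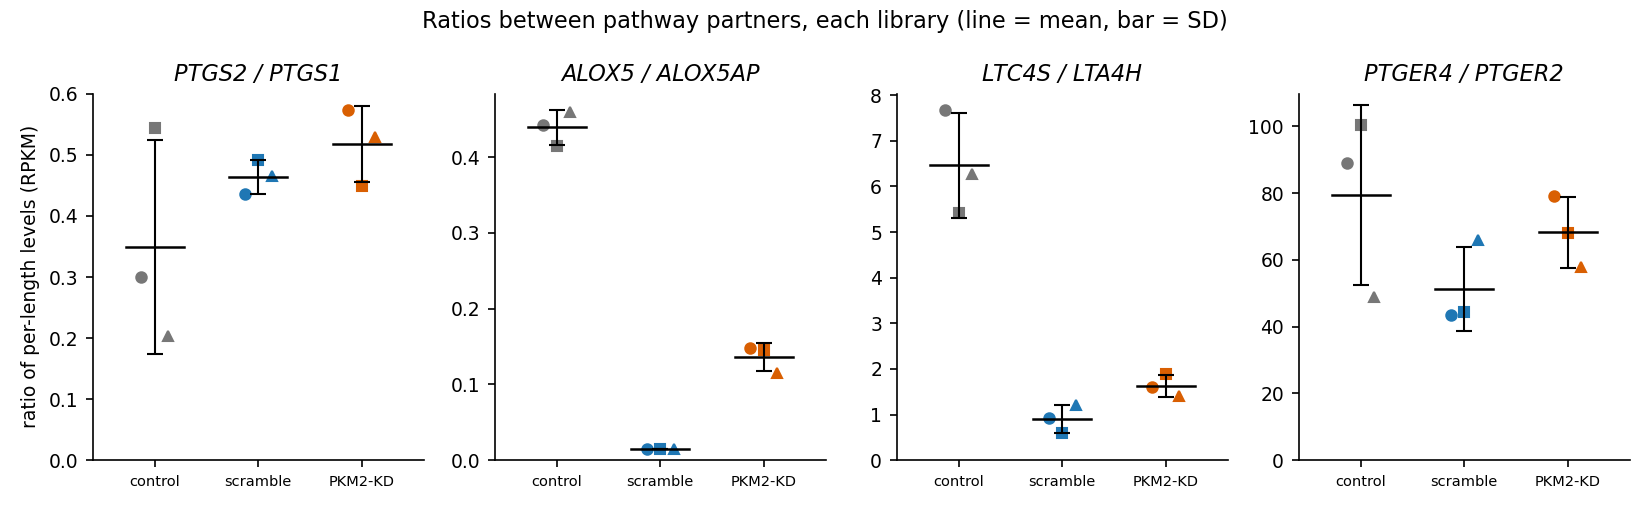
Ratio of RPKM between pathway partners (linear axes from 0) in each control, scramble-ectosome and PKM2-knockdown-ectosome (PKM2-KD) library, with mean and SD of 3; circles, squares and triangles are replicates 1, 2 and 3. The ratio of ALOX5 to ALOX5AP falls into 3 separate groups with means of 0.439, 0.0150 and 0.136, while the ratio of PTGS2 to PTGS1 overlaps between groups.

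Other genes of the pathway were counted from lists chosen by function. Several of those named share exon bases with a gene on the other strand, up to 13.4% for PRXL2B with MMEL1, and reads of such pairs could not be separated. The share called over all rows, for reading beside each list, was 67.8% for scramble ectosomes against control (34.6% higher, 33.2% lower). For PKM2-knockdown against scramble ectosomes it was 61.6% (31.4% higher, 30.3% lower). Of 30 further genes that release, re-esterify or make arachidonate, 26 were tested. With scramble ectosomes 13 were higher and 12 lower (median log2 -0.01), and with PKM2-knockdown against scramble ectosomes 13 were higher and 5 lower (median 0.48). The 26 include PLA2G7 (0.118, 0.864 and 4.79 CPM in control, scramble and PKM2-knockdown cells) and PLA2G10 (0.0614, 0.878 and 0.220 CPM). PLA2G7 passed the filter only through the ectosome groups and PLA2G10 only through the scramble group. Calls of PLA2G10, and of PLA2G7 against control, are therefore no support. ACSL5, an acyl-CoA synthetase that activates fatty acids for re-esterification, went from 32.0 ± 0.983 CPM in control to 175 ± 5.16 CPM with scramble ectosomes (SD, n = 3; 5.47-fold, adjusted p = 1.46e-09). With PKM2-knockdown ectosomes it was 51.9 ± 1.75 CPM, 3.38-fold lower than with scramble ectosomes (adjusted p = 3.15e-08). MGLL, the monoacylglycerol lipase that can free arachidonate from 2-arachidonoylglycerol, rose 5.99-fold with scramble ectosomes (adjusted p = 5.61e-08) and averaged 4.88, 29.1 and 27.6 CPM in control, scramble and PKM2-knockdown cells. The triglyceride lipase gene PNPLA2 fell 3.36-fold with scramble ectosomes (adjusted p = 4.38e-07) and was 2.55-fold higher with PKM2-knockdown than scramble ectosomes (adjusted p = 5.06e-06). The desaturase gene FADS2, which acts in arachidonate synthesis, was 2.81-fold higher in that comparison (adjusted p = 2.49e-05), at 548 ± 148, 343 ± 14.1 and 964 ± 38.9 CPM in the 3 groups (SD, n = 3).

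Among 11 other prostanoid synthases and reductases, 8 were tested. With scramble ectosomes 2 were higher and 3 lower (median log2 -0.12), and with PKM2-knockdown against scramble ectosomes 5 were higher and 1 lower (median 0.63). The 8 include PTGDS (0.830, 0.0301 and 0.806 CPM in control, scramble and PKM2-knockdown cells), which passed the filter only through the control and PKM2-knockdown groups. Calls of PTGDS that involve the scramble group are therefore no support. AL807752.7 on the same strand shares 23.4% of the exon bases of PTGDS. TBXAS1, thromboxane synthase, stood at 5.39 ± 2.44, 36.6 ± 0.603 and 54.8 ± 6.11 CPM (SD, n = 3). It rose 6.75-fold with scramble ectosomes (adjusted p = 2.77e-06) and was 1.499-fold higher still with PKM2-knockdown ectosomes (adjusted p = 0.0348), a call lost when any 1 of the 6 ectosome libraries was left out (adjusted p between 0.0628 and 0.127). PRXL2B, a prostamide and prostaglandin F synthase, fell 2.94-fold with scramble ectosomes (adjusted p = 8.74e-06) and was 4.74-fold higher with PKM2-knockdown than scramble ectosomes (adjusted p = 9.37e-07). The other prostaglandin E synthase genes moved little. PTGES2 fell 1.37-fold with scramble ectosomes (adjusted p = 0.00625), and PTGES3 rose 1.16-fold (adjusted p = 0.0263), a call that scaling by library totals removed (0.928), as did leaving out control replicate 1 (0.0753) or 2 (0.0789) or scramble replicate 2 (0.0670) or 3 (0.0956).

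Of 9 prostaglandin breakdown and transport genes, 6 are in the table and were tested. With scramble ectosomes 2 were higher and 4 lower (median log2 -0.35), and with PKM2-knockdown against scramble ectosomes 2 were higher and 3 lower (median 0.10). The organic anion transporter genes SLCO4A1 and SLCO3A1 rose 3.02-fold and 2.21-fold with scramble ectosomes (adjusted p = 2.08e-07 and 3.92e-07). Both were lower with PKM2-knockdown than with scramble ectosomes, by 1.40-fold and 1.45-fold (adjusted p = 0.00133 and 0.000151). PTGR1, a prostaglandin reductase that inactivates prostaglandins and leukotriene B4, fell 1.24-fold with scramble ectosomes (adjusted p = 0.00804) and was 2.41-fold higher with PKM2-knockdown ectosomes (adjusted p = 7.44e-07).

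Among 7 other prostanoid receptors, 5 were tested. With scramble ectosomes 3 were higher and 0 lower (median log2 1.58), or 3 higher and 2 lower without control replicate 3. With PKM2-knockdown against scramble ectosomes 1 was higher and 1 lower (median -0.05). PTGER3 was low, at 0.262, 0.799 and 0.330 CPM in control, scramble and PKM2-knockdown cells, as was PTGFR, at 0.104, 0.667 and 1.09 CPM. PTGER3 passed the filter only through the scramble group and PTGFR only through the ectosome groups. Calls of PTGER3, and of PTGFR against control, are therefore no support. PTGIR, the prostacyclin receptor, averaged 3.19 ± 1.28 CPM in control, 25.4 ± 2.19 CPM with scramble and 24.6 ± 1.32 CPM with PKM2-knockdown ectosomes (SD, n = 3). It rose 7.86-fold with scramble ectosomes (adjusted p = 8.27e-07), and its value between the ectosomes was -0.05 on the log2 scale (SE 0.19, adjusted p = 0.848).

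Among 20 other lipoxygenase and leukotriene-handling genes, 12 were tested. With scramble ectosomes 3 were higher and 7 lower (median log2 -0.56), and with PKM2-knockdown against scramble ectosomes 6 were higher and 3 lower (median 0.42). The 12 include ALOXE3 (0.0465, 0.817 and 0.0647 CPM in control, scramble and PKM2-knockdown cells), which passed the filter only through the scramble group. DPEP2 (1.88, 0.0451 and 0.542 CPM) and EPHX2 (1.58, 0.0511 and 0.686 CPM) passed it only through the control and PKM2-knockdown groups. Calls of these genes that involve the scramble group are therefore no support. The microsomal glutathione transferase genes MGST1 and MGST3, relatives of LTC4S, moved in opposite directions. MGST3 had 59.5 ± 5.47, 16.9 ± 0.824 and 45.2 ± 0.998 CPM in control, scramble and PKM2-knockdown cells (SD, n = 3), a fall of 3.53-fold with scramble ectosomes (adjusted p = 3.22e-08). MGST1 had 30.8 ± 6.81, 110 ± 4.25 and 27.7 ± 2.71 CPM (SD, n = 3), a rise of 3.59-fold (adjusted p = 7.27e-07). COTL1, an actin-binding partner of 5-lipoxygenase, fell 1.70-fold with scramble ectosomes and was 1.87-fold higher with PKM2-knockdown ectosomes (adjusted p = 2.27e-05 and 1.01e-05). GGT5, which converts leukotriene C4 to leukotriene D4, averaged 1.82, 0.172 and 1.34 CPM and fell 10.1-fold with scramble ectosomes. No p-value is given for it, since it passed the filter only through the control and PKM2-knockdown groups.

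Among 11 leukotriene and related lipid mediator receptors, 8 were tested. With scramble ectosomes 3 were higher and 3 lower (median log2 0.60), and with PKM2-knockdown against scramble ectosomes 4 were higher and 0 lower (median 0.65). CYSLTR1, a receptor of the cysteinyl leukotrienes, averaged 18.5 ± 6.28 CPM in control, 5.18 ± 0.640 CPM with scramble and 17.0 CPM with PKM2-knockdown ectosomes (SD, n = 3). It fell 3.56-fold with scramble ectosomes (adjusted p = 2.05e-05) and was 3.28-fold higher with PKM2-knockdown than scramble ectosomes (adjusted p = 4.87e-05). LTB4R, the high-affinity leukotriene B4 receptor, fell 1.33-fold with scramble ectosomes (adjusted p = 0.000594). LTB4R2 on the same strand shares 7.95% of its exon bases. The formyl peptide receptor gene FPR1 was low in control cells, at 0.171 CPM. It averaged 1.63 CPM with scramble and 4.11 CPM with PKM2-knockdown ectosomes, which was 2.50-fold above scramble (adjusted p = 0.00118). With scramble ectosomes it was 9.50-fold above control, or 16.2-fold without control replicate 3. No p-value is given for that rise, since FPR1 passed the filter only through the ectosome groups. FPR2 and CMKLR1 did so too, so calls of these genes against control are no support. CYSLTR2 (0.190, 0.443 and 1.04 CPM in control, scramble and PKM2-knockdown cells) passed the filter only through the PKM2-knockdown group. Its calls for that group are therefore no support either.

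**Figure D4:**
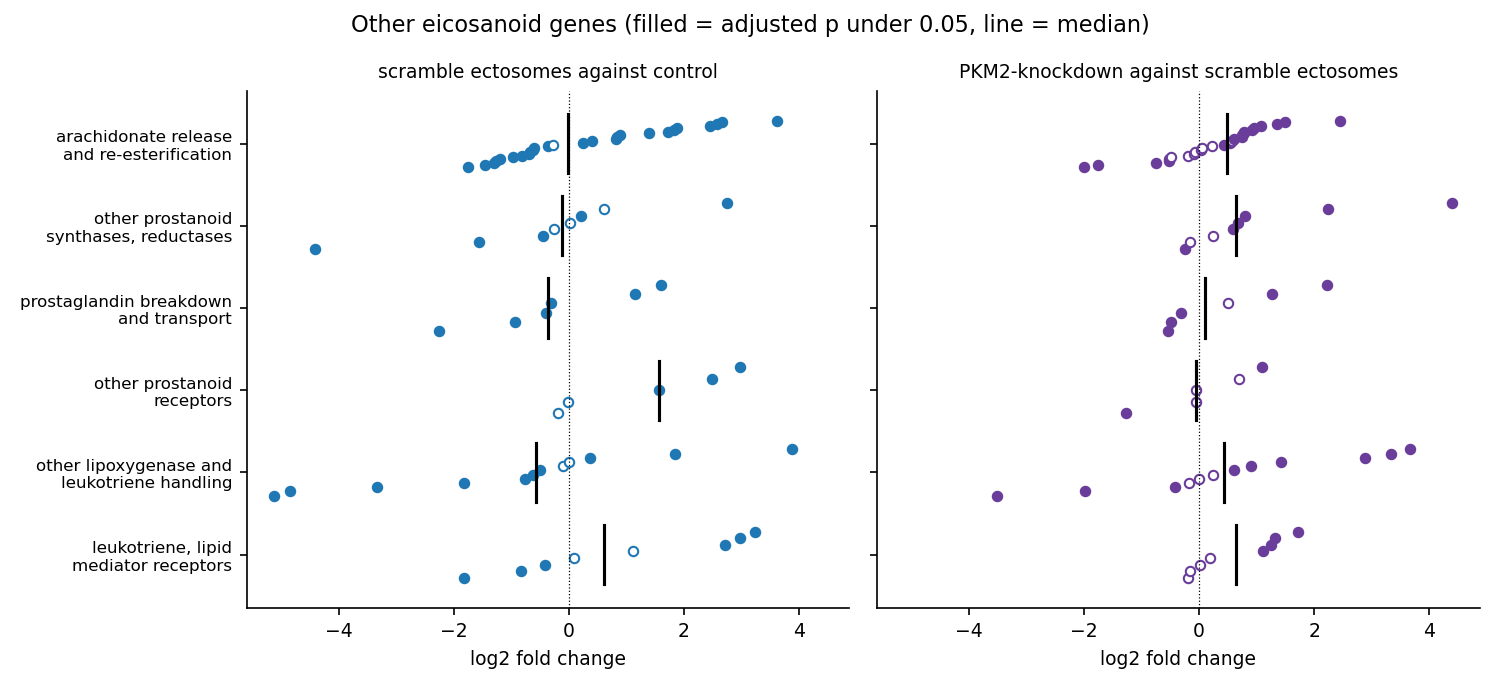
Log2 fold change of every tested gene of 6 further eicosanoid gene lists (1 row each, 1 point per gene) in scramble ectosomes against control, left, and PKM2-knockdown against scramble ectosomes, right; filled points have an adjusted p under 0.05 and the vertical bar is the list's median. Medians run from -0.56 to 1.58 on the left and from -0.05 to 0.65 on the right, with genes on both sides of 0 in nearly every list.

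For 3 of the genes, those with the most similar pattern over the 9 libraries were sought by the root mean square difference of centred log2(CPM + 0.5) values, as a description without a test. Among 11036 genes with a mean of at least 5 CPM, those nearest to PTGS2 were PLAUR (0.209), CCND1 (0.213) and ICOSLG (0.228). PLAUR, the urokinase receptor gene, averaged 38.9, 340 and 432 CPM in control, scramble and PKM2-knockdown cells. Nearest to ALOX5 were MAP1LC3A (0.175), NDRG1 (0.203) and ALDOC (0.236), and NDRG1 averaged 168, 108 and 813 CPM. Nearest to PTGER2, among 11037 genes, were FAM76A (0.122), FASN (0.129) and ZNF211 (0.133), all with a narrow range across the groups.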

How the data were processed

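The values deposited by the authors are raw counts of reads, 1 row per gene symbol and 1 column for each of 9 THP-1 libraries. The submitters' processing notes name HISAT2 2.0.5, featureCounts 1.5.0-p3 and GRCh38/hg38. Annotation release and strand setting: not given in the sources used here. Per the labels' protocols, 3 µg of Trizol-extracted RNA went into each NEBNext Ultra library.

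After filterByExpr by group, 18437 of 30000 rows remained, with at least 99.8% of the counts of each library. Counts were tested with edgeR 4.0.16 in R 4.3.3: TMM scaling, 1 quasi-likelihood fit over all 9 libraries with group as the only term, 6 residual degrees of freedom, two-sided tests, and a threshold of 0.05 on p adjusted by Benjamini-Hochberg across the whole table. The common biological coefficient of variation was 13.3%. SEs were taken as |log2 fold change| over the root of F, and 95% intervals use a t distribution with 6 degrees of freedom, so both are approximate. Bounds and count intervals hold only counting error, since the libraries had no molecular identifiers to tell molecules from copies. No 2 libraries matched within sampling noise.

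The genes and lists were chosen with earlier results of these data known. All 10 genes are named in each comparison. Of each other list, the text names some of up to 4 genes with the smallest p among those past the threshold with a mean of at least 1 CPM, taken in the comparison of scramble ectosomes with control and in that of PKM2-knockdown with scramble ectosomes. For PTGS2, ALOX5 and PTGER2 the 3 nearest genes are named. The markers CD68, ITGB2, albumin, APOA1, TF, TTR, HNF4A, AMBP, GP9, MS4A2, HDC and CD3E were named after their values were seen. The same holds for the receptor genes PTGER3, PTGFR, FPR2 and CYSLTR2, and for PLA2G7, PLA2G10, PTGDS, ALOXE3, DPEP2, EPHX2 and SIK1. Alternatives were DESeq2 1.42.0, other scaling, filter and prior count, fits of 2 groups, a replicate block and each library left out.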

Additional observations from a re-analysis of the deposited data

How the results depend on the processing

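Counts of calls over all rows and over the 10 pathway genes moved by less than 1.5 times in all the alternatives run. Of the other lists, run without control replicate 3 and with library totals, 73 counts stayed within 1.5 times and 5 did not. The 5 were other prostanoid receptors (3 called, 5 without control replicate 3), lymphocyte markers (1 and 2) and hepatocyte markers (1, 0 without that library and 2 with library totals) for scramble ectosomes against control, and hepatocyte markers (2 and 4) for PKM2-knockdown against scramble ectosomes. Rows past the threshold ranged from 11473 to 13640 (12492 as reported) for scramble ectosomes against control, from 10175 to 13617 (11365) for PKM2-knockdown against scramble ectosomes, and from 8399 to 10997 (9904) for PKM2-knockdown ectosomes against control. Of the 10 pathway genes, 8 were called throughout in the comparison of scramble ectosomes with control, and 6 to 9 in each of the others. Without control replicate 3 the counts were 8, 9 and 9, while 13640, 13617 and 10997 of 19053 rows passed. Of the alternative values of single genes among the 10, 409 kept their status as called or not called. Another 15 lost the call (6 for PTGER2, 6 for LTA4H and 3 for PLA2G4A), 5 gained it (2 each for PTGS1 and PTGS2, 1 for PTGER2) and 0 called values changed sign. The 409 include uncalled values that changed direction. PTGER2 in scramble ectosomes against control ran from -0.30 to 0.06 on the log2 scale. The cause of these changes was not tested. A prior count of 2 was run for scramble ectosomes against control only.

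The labels give each group replicates 1 to 3. Deviations from the group mean of same-numbered libraries correlated between -0.094 and 0.067 (9 pairs, 0 over 0.1), against -0.071 to 0.071 for libraries of other numbers, so the number was not taken as a pairing. With the replicate block, 12179, 11035 and 9401 rows and 8, 6 and 8 of the 10 genes passed in the 3 comparisons, and PTGER2 in PKM2-knockdown against scramble ectosomes was the gene that dropped out (adjusted p = 0.0672). The lowest-count gene, PTGES, is limited by depth, with 0, 2 and 46 reads in the 3 groups. Its fitted fold between the ectosomes was 19.9, or 122.7 without scramble replicate 1, the only scramble library with reads.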

Other observations

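Genes that carry the signal of the EP2 and EP4 receptors, and those reported to control PTGS2, were counted too. Over all rows, 67.8% were called for scramble ectosomes against control (34.6% higher, 33.2% lower). For PKM2-knockdown against scramble ectosomes the share was 61.6% (31.4% higher, 30.3% lower). Of 30 genes of Gs and cyclic AMP signalling 29 were tested. With scramble ectosomes 17 were higher and 5 lower (median log2 0.82), and with PKM2-knockdown against scramble ectosomes 8 were higher and 15 lower (median -0.41), or 9 and 11 with scaling by library totals. The phosphodiesterase genes PDE4A, PDE4B and PDE4D, which break down cyclic AMP, rose 5.63-fold, 8.08-fold and 9.40-fold with scramble ectosomes (edgeR adjusted p = 8.50e-08, 3.91e-09 and 4.59e-09). They parted between the ectosomes. PDE4D averaged 10.2 ± 1.16, 96.4 ± 2.06 and 21.5 ± 2.58 CPM in control, scramble and PKM2-knockdown cells (SD, n = 3), whereas PDE4B averaged 7.06 ± 0.869, 57.2 ± 3.41 and 64.2 ± 1.69 CPM. NR4A3, an orphan nuclear receptor gene induced by cyclic AMP among other signals, averaged 0.484, 40.8 and 15.1 CPM. NR4A3 and SIK1 (0.162, 3.59 and 1.47 CPM) passed the filter only through the ectosome groups, so their calls against control are no support. PRKAR1A, a regulatory subunit of protein kinase A, rose 1.90-fold with scramble ectosomes (adjusted p = 1.08e-06) and was 1.80-fold lower with PKM2-knockdown than with scramble ectosomes (adjusted p = 3.72e-06). ARRB1, beta-arrestin 1, fell 1.44-fold and was then 2.31-fold higher (adjusted p = 0.000599 and 2.25e-06).

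All 20 reported regulators of PTGS2 transcription or mRNA stability were tested. With scramble ectosomes 9 were higher and 6 lower (median log2 0.16), and with PKM2-knockdown against scramble ectosomes 6 were higher and 10 lower (median -0.21), or 7 and 6 with scaling by library totals. NR3C1, the glucocorticoid receptor, averaged 95.6 ± 2.56, 385 ± 13.2 and 157 ± 14.2 CPM (SD, n = 3), a rise of 4.03-fold with scramble ectosomes (adjusted p = 1.33e-08) and a level 2.46-fold lower with PKM2-knockdown ectosomes (adjusted p = 5.14e-07). CELF2, an RNA-binding protein reported to restrain COX-2 translation, fell 2.42-fold with scramble ectosomes (adjusted p = 1.11e-07) and was 1.98-fold higher with PKM2-knockdown ectosomes (adjusted p = 1.39e-06). Among the regulators higher with scramble ectosomes, NFKB1 averaged 62.0, 461 and 265 CPM in control, scramble and PKM2-knockdown cells. RELA averaged 67.9, 123 and 103 CPM. The summed level of lymphocyte markers, 5 of 8 in the table, was 19.0 to 29.03, 44.5 to 53.5 and 49.1 to 52.1 CPM in the 3 groups, mostly NKG7, with CD3E under 1 CPM in each group.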
